A study of Mus musculus with 6 samples.

Results

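The genes described here make, receive or block the enzymes that turn plasminogen into plasmin: the activators PLAU and PLAT, the receptor PLAUR and the inhibitors SERPINE2 and SERPINB2. They were chosen by name, as the rows of the expression table with exactly these 5 symbols, and all 5 were found among its 23284 gene symbols. RNA was sequenced in 6 xenograft tumours that arose in athymic nude mice after 1000000 STS26T cells had been injected under the skin, an established human line labelled as malignant peripheral nerve sheath tumour. After the tumours had become palpable, the mice received TRC105 together with M1043, antibodies against human and mouse endoglin (ENG), or IgG as control. The tumour volume at the start is listed as 100 mm3 in both arms. The antibodies were given intraperitoneally at 10 mg/kg and 2 times weekly for 3 weeks in either case. There were 3 tumours in each arm, called IgG control 1 to 3 and anti-ENG 1 to 3 after their titles. Both arms thus share the cell line, the host and the injections, and differ in the antibody. Athymic nude mice lack mature T cells and keep myeloid and other host cells. Mouse age and sex are not given in the sources used here.

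Plasmin is a broad serine protease that dissolves fibrin, cuts matrix proteins and activates other proteases and growth factors. It circulates as the inactive plasminogen, which is cut by urokinase (PLAU), held on cells by its receptor (PLAUR), or by tissue-type activator (PLAT), which works best on fibrin. Serpins trap these activators: SERPINE2, or protease nexin 1, blocks thrombin, urokinase, tissue-type activator and plasmin outside the cell, and SERPINB2, or plasminogen activator inhibitor 2, blocks mainly urokinase and is found largely within cells. In tumours of the nerve sheath and other soft tissues the system is known for its part in invasion and matrix turnover. No protein or promoter sequence is shown, because human sequences of these genes were not used here.

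Levels are given in FPKM, fragments per kilobase of transcript and scaled to the mapped fragments of the library by the authors, a unit that allows levels to be compared between genes. The columns summed to 410786 to 475146 FPKM, and 12358 to 12624 genes per tumour stood at 1 FPKM or more. From the steps between low values, depth relative to IgG control 1 ran from 1.10 in IgG control 3 to 1.46 in anti-ENG 1. IgG control 1 and anti-ENG 1 were the extremes of the leading principal component (44.6% of variance), so results of the 5 genes are also given without them where they change. Of the Schwann and neural crest markers, 5 of 8 had a mean below 1 FPKM, with SOX10 at 0.0780 and S100B at 0.0315 FPKM, while SOX2 stood at 6.36 FPKM, so SOX10 and S100B, which define Schwann cells, were near 0 in tumours labelled as nerve sheath tumours. The endothelial genes CDH5, VWF and KDR had means of 0.107, 0.0522 and 0.0263 FPKM, and the other 2 endothelial markers, TEK and PECAM1, had means of 1.86 and 1.58 FPKM. Host cells are mouse cells, and host RNA is therefore counted only as far as its reads map to the human build.

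The 5 genes spanned a wide range of levels in a fixed order, with a single exchange. SERPINE2 was the most abundant in all 6 tumours, PLAT stood next to last and SERPINB2 last in all 6, and PLAUR lay above PLAU in 5 of 6. The mean over all tumours was 224 FPKM for SERPINE2, higher than in 97.9% of the 12586 genes that averaged 1 FPKM or more, which are the genes tested below. PLAUR had a mean of 72.2 FPKM and PLAU one of 55.9 FPKM, while PLAT stood near the middle of the tested genes at 12.4 FPKM. SERPINB2 had a mean of 1.83 FPKM, above 7.91% of the tested genes. Neighbours in this order did not overlap within either arm except PLAUR and PLAU, whose levels overlapped in both arms, although PLAUR exceeded PLAU within each of the 3 IgG tumours and in 2 of the 3 anti-ENG tumours. The next closest were SERPINE2 in anti-ENG 1, at 83.7 FPKM, and PLAUR in anti-ENG 3, at 83.6 FPKM. All 5 members passed the filter.

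**Figure D1:**
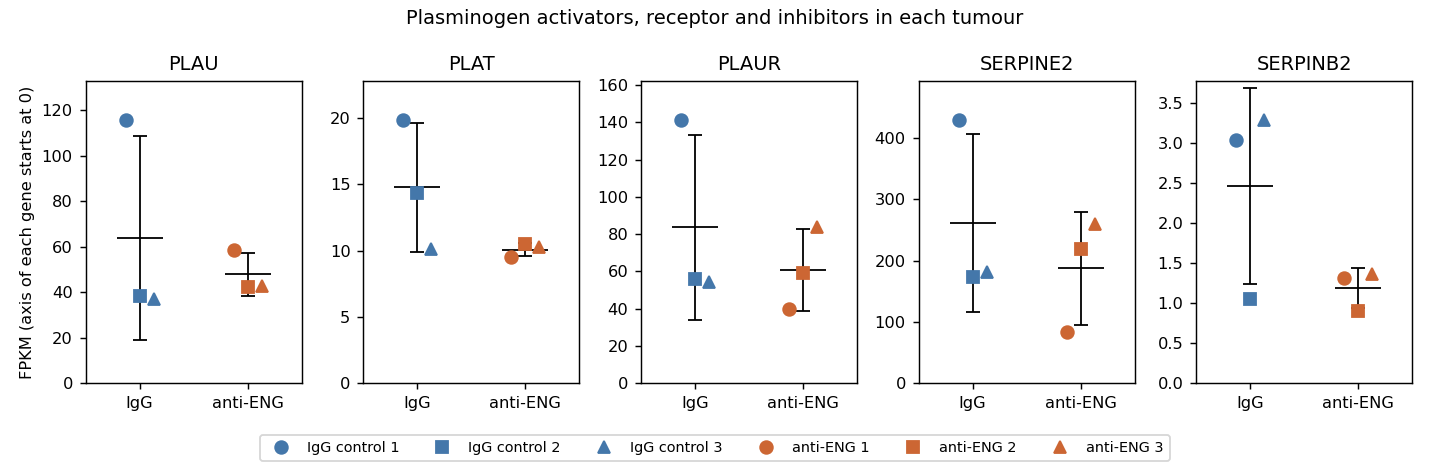
Level in FPKM (vertical axes, each from 0) of PLAU, PLAT, PLAUR, SERPINE2 and SERPINB2 in each tumour, with IgG tumours in blue, anti-ENG tumours in orange and the shape giving the tumour number; black bars are the mean ± SD of 3 tumours. IgG control 1 is the highest point for PLAU, PLAT, PLAUR and SERPINE2, and the arms overlap for every gene.

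None of the 5 genes differed between the arms beyond the spread between tumours. By limma on log2(FPKM + 1), 0 of 5 members passed an adjusted p of 0.05, against 0% of the 12586 genes tested, and 0 of 5 had an unadjusted p under 0.05, against 9.17% of the genes tested (1154 genes). The values of the arms did not overlap in 0 of 5 members, against 17.3% of the genes tested. All 5 estimates were lower in the anti-ENG tumours, with a median log2 fold change of -0.46, where the median of all genes tested was 0.0065 and 48.8% of them had a lower estimate. The members share tumours, and 4 of them had their highest value in IgG control 1. Without IgG control 1 the estimates of PLAU and PLAUR were above 0, and without anti-ENG 1 that of SERPINE2 was. Nothing in the labels says that tumours came from separate animals, so the p-values measure only the spread between these samples. The description codes of IgG control 2 and 3 share a number, as do those of anti-ENG 1 and 2. Every fit without IgG control 1 thus leaves in that arm only tumours of a shared code number, which may come from the same animal. With tumours of a shared code number averaged, which leaves 2 values in each arm, the log2 fold changes were -0.51 for PLAU, -0.57 for PLAT, -0.46 for PLAUR, -0.56 for SERPINE2 and -0.64 for SERPINB2, with limma adjusted p of 0.668 or more. The arms of PLAT and SERPINB2 then did not overlap, as in 5189 of the 12586 genes tested.

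PLAU, the urokinase gene, stood at 115.6, 38.6 and 37.3 FPKM in the IgG tumours 1 to 3, compared with 58.9, 42.2 and 43.0 FPKM in the anti-ENG tumours 1 to 3. IgG control 1 thus stood apart from all others, at 3.04 times the mean of the other IgG tumours, and anti-ENG 1 was the next highest. The means were 63.8 ± 44.8 FPKM (SD, n = 3) with IgG and 48.0 ± 9.37 FPKM (SD, n = 3) with anti-ENG. The log2 fold change was -0.21 (SE 0.41, limma adjusted p = 0.854), with a 95% interval from -1.18 to 0.76. An exact permutation test, two-sided, gave p = 1, and with 3 tumours against 3 it cannot go below 0.1. The medians went the other way, 38.6 FPKM with IgG and 43.0 with anti-ENG. Without IgG control 1 the log2 fold change was 0.32 (SE 0.18, limma adjusted p = 0.760), and each of the 3 anti-ENG tumours lay above both remaining IgG tumours. The arms did not overlap in 3383 of the 12586 genes tested in that fit. As IgG control 1 was the only IgG tumour not below the anti-ENG tumours, leaving it out separates the arms in any case. With anti-ENG 1 also left out the log2 fold change of PLAU was 0.16. C10orf55, a gene that overlaps PLAU on the opposite strand, was listed at 0.760 to 1.13 FPKM with IgG and 0.990 to 1.55 with anti-ENG. Reads of that pair may not be separable, since the sources used here do not state whether counting used strand, but C10orf55 was listed at a small part of the PLAU level.

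PLAT, the tissue-type activator gene, stood at 19.8, 14.3 and 10.2 FPKM in the IgG tumours 1 to 3, compared with 9.50, 10.5 and 10.3 FPKM in the anti-ENG tumours 1 to 3. The anti-ENG tumours lay close together, within a 1.10-fold range, and the lowest IgG tumour lay among them, so the arms overlapped. The means were 14.8 ± 4.83 FPKM (SD, n = 3) with IgG and 10.1 ± 0.509 FPKM (SD, n = 3) with anti-ENG. The log2 fold change was -0.46 (SE 0.21, limma adjusted p = 0.530), with a 95% interval from -0.97 to 0.039. The exact permutation test gave p = 0.3. The estimate of PLAT was below 0 in each of its 20 alternatives, from -0.69 to -0.20. Without IgG control 1 it was -0.24, and without IgG control 3, the tumour that overlapped the other arm, -0.69 (limma unadjusted p = 0.00558, adjusted p = 0.709). In that last fit the arms of PLAT did not overlap, as in 3377 of the 12586 genes tested. IgG control 3 was the only IgG tumour within the anti-ENG range. Leaving it out separates the arms and lowers the estimate in any case. On the FPKM + 1 scale the interval runs from 0.512 to 1.03 times the IgG level.

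PLAUR, the gene of the urokinase receptor, which is anchored to the cell surface by a lipid, stood at 140.9, 55.8 and 54.1 FPKM in the IgG tumours 1 to 3, compared with 39.7, 59.3 and 83.6 FPKM in the anti-ENG tumours 1 to 3. IgG control 1 held the highest value and anti-ENG 1 the lowest, and the other 4 tumours lay between them. The means were 83.6 ± 49.6 FPKM (SD, n = 3) with IgG and 60.8 ± 22.0 FPKM (SD, n = 3) with anti-ENG. The log2 fold change was -0.37 (SE 0.41, limma adjusted p = 0.748), with a 95% interval from -1.32 to 0.59, and p was 0.7 in the exact permutation test. It was 0.081 without IgG control 1, -0.096 without anti-ENG 1 and 0.35 (SE 0.18, limma adjusted p = 0.803) without both. In that last comparison both anti-ENG tumours lay above both IgG tumours, and the arms did not overlap in 4780 of the 12586 genes tested. Leaving out the highest IgG and the lowest anti-ENG value raises the estimate in any case.

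SERPINE2 stood at 428.4, 174.1 and 181.8 FPKM in the IgG tumours 1 to 3, compared with 83.7, 219.6 and 259.1 FPKM in the anti-ENG tumours 1 to 3. As for PLAUR, IgG control 1 was highest and anti-ENG 1 lowest, and the range between them was 5.12-fold, the widest of the 5 genes. Anti-ENG 2 and 3 lay above IgG control 2 and 3, and among these tumours the arms did not overlap in 4780 of the 12586 genes tested. The means were 261 ± 144.7 FPKM (SD, n = 3) with IgG and 187 ± 92.0 FPKM (SD, n = 3) with anti-ENG. The log2 fold change was -0.50 (SE 0.49, limma adjusted p = 0.714), with a 95% interval from -1.65 to 0.65, and p was 0.6 in the exact permutation test. Leaving out IgG control 1 gave -0.079, leaving out anti-ENG 1 gave 0.00016, and leaving out both gave 0.42 (SE 0.13, limma unadjusted p = 0.0213, adjusted p = 0.797). As these tumours held the highest and the lowest value, leaving them out raises the estimate in any case. It also takes out the widest deviations behind its SE.

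SERPINB2 stood at 3.04, 1.05 and 3.28 FPKM in the IgG tumours 1 to 3, compared with 1.32, 0.909 and 1.36 FPKM in the anti-ENG tumours 1 to 3. IgG control 1 and 3 were the highest tumours, while IgG control 2 lay among the anti-ENG tumours. The means were 2.46 ± 1.22 FPKM (SD, n = 3) with IgG and 1.19 ± 0.248 FPKM (SD, n = 3) with anti-ENG, a ratio of 0.486. The log2 fold change was -0.59 (SE 0.30, limma adjusted p = 0.542), with a 95% interval from -1.29 to 0.11, and p was 0.3 in the exact permutation test. At this low level the pseudocount of 1 shrinks the estimate, which was -0.85 with a pseudocount of 0.1. The estimate stayed below 0 in each of its 19 alternatives. Its extremes were -0.40, with IgG control 3 left out, and -0.93, with IgG control 2 left out (limma unadjusted p = 0.00302, adjusted p = 0.722). Without IgG control 2 the arms of SERPINB2 did not overlap, as in 3207 of the 12586 genes tested. This was the only IgG tumour within the anti-ENG range, so leaving it out separates the arms and lowers the estimate in any case. The estimate was -0.48 with both IgG control 1 and anti-ENG 1 left out, so this gene did not turn with those tumours as PLAU, PLAUR and SERPINE2 did.

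**Figure D2:**
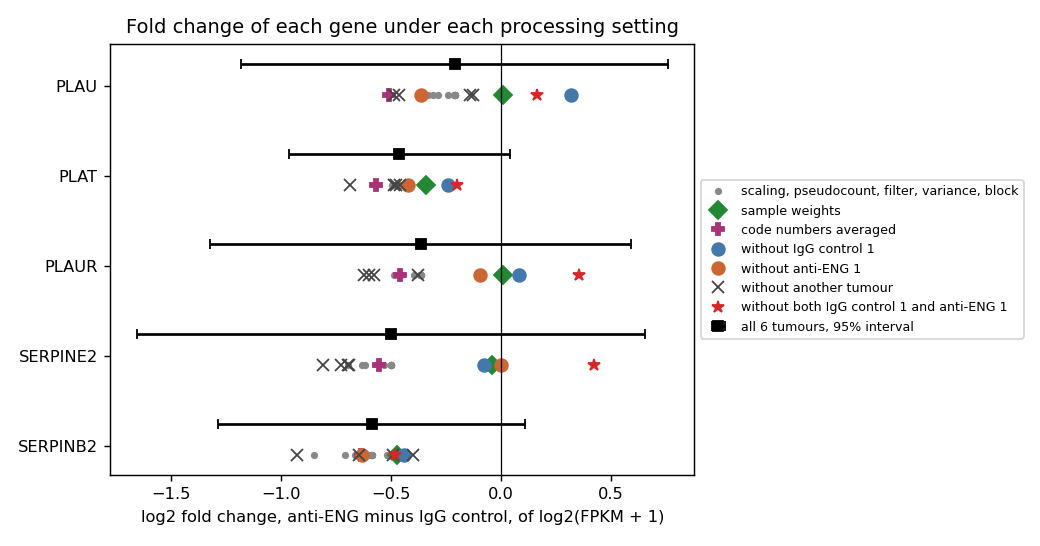
Log2 fold change of log2(FPKM + 1), anti-ENG minus IgG control (horizontal axis), for each gene; black squares with bars are the estimates from all 6 tumours with 95% intervals, and the symbols under them are the alternatives named in the key. All 5 intervals include 0, and the symbols without IgG control 1, without anti-ENG 1 or without both lie on the other side of 0 for PLAU, PLAUR and SERPINE2 in at least 1 case each.

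The spread between tumours of the same arm was large for these genes. The within-arm SD of log2(FPKM + 1) was 0.81 for SERPINE2, 0.67 for PLAU and 0.66 for PLAUR, against a median of 0.19 over all genes tested. Among genes with a mean level within 2-fold of their own, these SDs exceeded those of 96.6% (SERPINE2, 447 genes), 97.2% (PLAU, 2427 genes) and 96.9% (PLAUR, 1891 genes). PLAT had an SD of 0.32 and SERPINB2 one of 0.43, at 86.6% and 80.5% among genes near their levels. The range was wider with IgG for PLAU, SERPINB2 and PLAT: the highest IgG tumour had 3.10 times the PLAU level of the lowest, against 1.39 times with anti-ENG, and for SERPINB2 these ranges were 3.11-fold and 1.49-fold, and for PLAT 1.95-fold and 1.10-fold. For SERPINE2 the order was the opposite, 2.46-fold with IgG and 3.09-fold with anti-ENG. For PLAUR the range was again wider with IgG, 2.60-fold against 2.11-fold with anti-ENG. With 3 tumours in each arm these differences in range were not tested. The SE of the log2 fold change was smaller in some fits without IgG control 1 or anti-ENG 1. It went from 0.41 to 0.18 for PLAU without IgG control 1. Without both tumours it went from 0.41 to 0.18 for PLAUR and from 0.49 to 0.13 for SERPINE2. For SERPINB2 it rose from 0.30 to 0.39 without both, and for PLAU from 0.41 to 0.48 without anti-ENG 1. IgG control 1 held the highest value of PLAU, PLAUR and SERPINE2, and anti-ENG 1 the lowest of PLAUR and SERPINE2. Where the SE fell, the fit had left out such an extreme value, so this is no separate result.

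**Figure D3:**
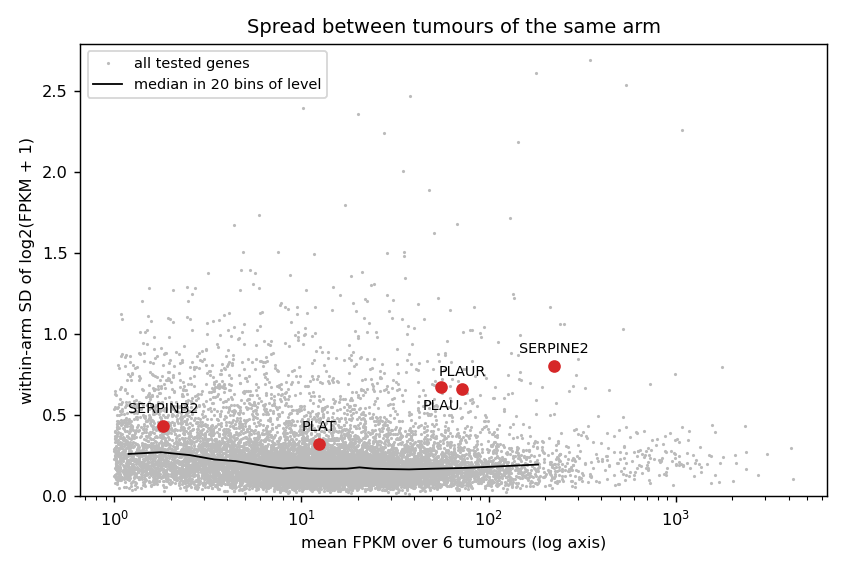
Within-arm SD of log2(FPKM + 1) (vertical axis) against the mean FPKM over 6 tumours (horizontal log axis) for the 12586 genes tested in grey, their median in bins of level as a black line and the 5 genes in red. PLAU, PLAUR and SERPINE2, with SDs of 0.66 to 0.81, stand well above the line, whose overall median is 0.19.

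PLAUR and SERPINE2 followed each other most closely over the tumours. Their order of tumours differed in a single neighbouring pair (IgG control 2 and 3), and Pearson's r of log2(FPKM + 1) over 6 tumours was 0.94 (exact permutation p = 0.0111, adjusted p = 0.111 over the 10 pairs of members). Spearman's rho was 0.94 (exact permutation p = 0.0167, adjusted p = 0.167), and r was 0.99 without IgG control 1 and anti-ENG 3, the tumours farthest from the PLAUR median. After adjustment neither passed 0.05. PLAT and PLAUR had r = 0.77 (exact permutation p = 0.0514, adjusted p = 0.257) and rho = 0.77 (exact permutation p = 0.103, adjusted p = 0.514), with r = 0.77 without IgG control 1 and 2. For PLAU and PLAUR r was 0.67 and rho 0.43 (exact permutation p = 0.163 and 0.419, adjusted p = 0.344 and 0.940), and r was 0.78 without IgG control 1 and anti-ENG 1. PLAU with PLAT, PLAU with SERPINE2 and PLAT with SERPINE2 had r of 0.71, 0.44 and 0.68 and rho of 0.20, 0.37 and 0.60 (exact permutation p of 0.153, 0.342 and 0.172 for r and 0.714, 0.497 and 0.242 for rho). The lowest adjusted p of these 3 pairs was 0.344, and r without the 2 farthest tumours was -0.35, 0.92 and 0.95. The 4 pairs with SERPINB2 had r between 0.37 and 0.45 and rho between -0.14 and 0.31 (exact permutation p of 0.422 or more for r, adjusted p of 0.525 or more). Each of these r was below 0 without the 2 tumours farthest from the other gene's median, so they rest on those tumours. These correlations pool both arms, 3 tumours in an arm are too few for a value within it, and tumours may share an animal.

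Ratios between genes in the same tumour do not depend on how the libraries were scaled. The receptor stood at 1.22, 1.44 and 1.45 times its ligand PLAU in IgG control 1, 2 and 3, and at 0.674, 1.40 and 1.94 times in anti-ENG 1, 2 and 3. Anti-ENG 1 was thus the tumour with more PLAU than PLAUR, and anti-ENG 3 the one with the highest share of receptor. SERPINE2 stood at 3.71, 4.51 and 4.87 times the PLAU level in the IgG tumours and at 1.42, 5.20 and 6.02 times in the anti-ENG tumours. Here again anti-ENG 1 was below every other tumour. The ratio of SERPINE2 to PLAT ran from 12.2 to 21.6 with IgG and from 8.81 to 25.2 with anti-ENG. PLAU stood at 2.70 to 5.84 times PLAT with IgG and 4.04 to 6.19 times with anti-ENG, and was highest in IgG control 1 and anti-ENG 1. None of the 4 ratios separated the arms, with exact two-sided permutation p of 0.8, 1, 1 and 0.4 in this order, each 1 after adjustment over the 4. In IgG control 1 PLAU, PLAUR and SERPINE2 were all at their highest, whereas in anti-ENG 1 PLAU was the second highest of 6 while PLAUR and SERPINE2 were at their lowest.

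**Figure D4:**
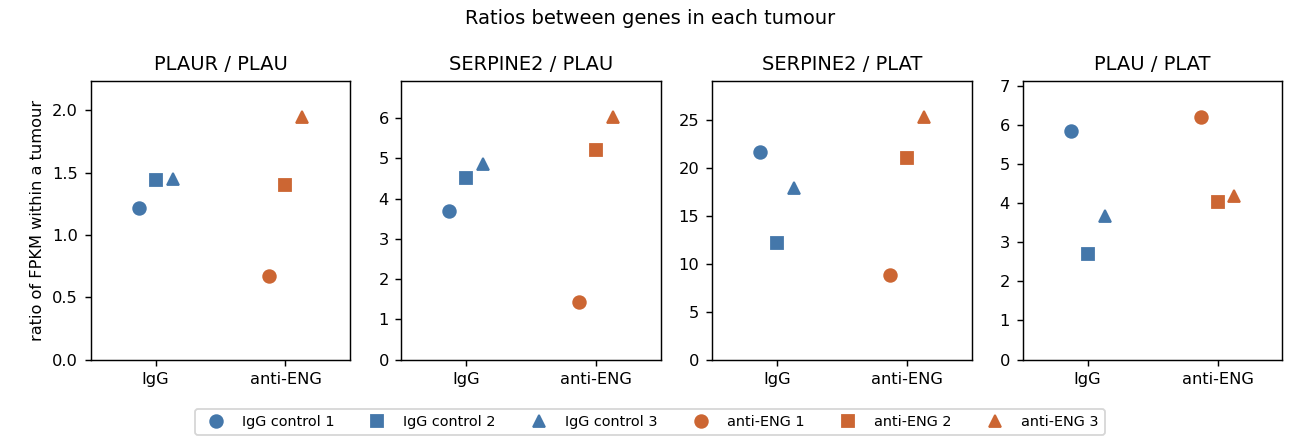
Ratio of FPKM values within a tumour (vertical axes, each from 0) for PLAUR to PLAU, SERPINE2 to PLAU, SERPINE2 to PLAT and PLAU to PLAT, with IgG tumours in blue, anti-ENG tumours in orange and the shape giving the tumour number. Anti-ENG 1 is the lowest point in the first 3 panels, at 0.674, 1.42 and 8.81, and the arms overlap in all 4.

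Genes used as markers of other cell types also varied between the tumours. The summed level of 6 fibroblast markers (DCN, LUM, COL3A1, PDGFRA, PDGFRB and FAP, none of them at 0) came to 667, 577 and 317 FPKM in the IgG tumours 1 to 3, compared with 173, 301 and 393 FPKM in the anti-ENG tumours 1 to 3. The sum was highest in IgG control 1 and lowest in anti-ENG 1, as were PLAT, PLAUR and SERPINE2, and consisted mostly of COL3A1, at a mean of 283 FPKM. Single markers differed from the sum: DCN and LUM were highest in IgG control 2, at 48.5 and 33.5 FPKM against 12.9 and 7.49 in IgG control 1, LUM was lowest in anti-ENG 2 and FAP in IgG control 3. The summed level of 6 leukocyte markers, 63.7 to 122 FPKM with IgG and 75.4 to 102 FPKM with anti-ENG, was also highest in IgG control 1 and consisted mostly of CD68, a lysosomal protein gene at a mean of 80.0 FPKM. PTPRC, the defining leukocyte gene, had a mean of 0.612 FPKM. The neutrophil markers summed to 9.89 to 207 FPKM with IgG and 1.65 to 110 FPKM with anti-ENG, all but a small part from S100A8 and S100A9, with CSF3R at 0 and FCGR3B at or near 0 in every tumour. They were highest in IgG control 3, as was SERPINB2, but the other tumours did not follow: IgG control 1 had 9.89 FPKM of these markers with SERPINB2 at 3.04 FPKM, and anti-ENG 3 had 110 FPKM with SERPINB2 at 1.36 FPKM. The part of these markers in the levels of the 5 genes was not tested. The injected cells were human and the host cells mouse. These values can therefore be RNA of the STS26T cells themselves or mouse reads that map to the human build, which cannot be told apart here. In bulk tumours, fewer cells of a type and less RNA per cell cannot be told apart either.

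For each gene the 3 tested genes of most similar pattern were taken by Pearson's r of log2(FPKM + 1) over the 6 tumours, among 12581 other genes. With so many genes and 6 tumours some high values of r arise in any case, so these are descriptions. PLAU was followed most closely by RAB2B (r = 0.994), CTSL1, the gene of the lysosomal protease cathepsin L (0.987), and SGK223 (0.979). CTSL1 stood at 117, 76.3 and 70.5 FPKM in the IgG tumours 1 to 3, compared with 84.4, 78.0 and 78.0 FPKM in the anti-ENG tumours 1 to 3, so it shared the high value of IgG control 1 and the second place of anti-ENG 1. For PLAT they were PIK3IP1, ZNF792 and CHST2 (0.997 to 0.999), and for PLAUR they were CDC42EP2 (0.994), SLCO3A1 (0.992) and APP, the amyloid precursor gene (0.989). SERPINE2 was followed by the membrane protein gene STOM (0.999), the zinc transporter gene SLC30A7 (0.996) and the galactosyltransferase gene B4GALT1 (0.996). SERPINB2 was followed by ITGB3, the integrin beta 3 gene (0.985), SERPINB9, a serpin of the same clade that blocks granzyme B (0.974), and NDST1, an enzyme of heparan sulfate synthesis (0.970). ITGB3 stood at 14.5, 8.64 and 14.7 FPKM in the IgG tumours 1 to 3, compared with 8.38, 7.54 and 8.47 FPKM in the anti-ENG tumours 1 to 3, with the same low IgG control 2.

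Beyond the 5 members, 31 other genes of the plasmin system were taken from a list ordered by role, which is a selection and not the whole system. Of these, 17 averaged 1 FPKM or more and were tested: 6 had higher and 11 lower estimates in the anti-ENG tumours, and 0 passed the adjusted threshold in either direction. The median log2 fold change was -0.099, against 0.0065 for all genes tested, and the arms did not overlap in 3 of the 17 (17.6%), close to the 17.3% of all genes tested. At an unadjusted p under 0.05 there were 4, ENO1, C9orf46, PDGFC and LRP1, the second of which was named after its values were seen. Their share of the 17 was above the 9.17% of all genes tested, a difference that was not tested. As the list was chosen with earlier results of these data known, this share cannot be read as an excess over that background.

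Plasminogen itself had almost no RNA in these tumours. PLG, a liver product, was listed at 0.0334 FPKM in IgG control 1 and at 0 in the other 5, and the fibrinogen chain genes FGB and FGA had means of 0.179 and 0.0995 FPKM. The genes that receive plasminogen at the cell surface were abundant. ANXA2, annexin A2, which binds both plasminogen and tissue-type activator, had 704 to 942 FPKM with IgG and 823 to 1234 FPKM with anti-ENG, a log2 fold change estimated at 0.43 (SE 0.21, limma adjusted p = 0.534). ENO1, a glycolytic enzyme that also acts as a plasminogen receptor, had 777, 725 and 778 FPKM in the IgG tumours and 1227, 880 and 1010 FPKM in the anti-ENG tumours. The arms of ENO1 did not overlap, and its log2 fold change was 0.44 (SE 0.16, limma adjusted p = 0.529). Estimates were above 0 for all 4 plasminogen receptor genes (S100A10 at 0.16 and C9orf46, also called PLGRKT, at 0.39), but across the 4 other scalings ANXA2 ran from 0.10 to 0.40, ENO1 from 0.12 to 0.41 and S100A10 from -0.040 to 0.13, so the direction of S100A10 turned with the scaling.

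The proteases that can activate pro-urokinase were represented by the cathepsin genes. CTSB, cathepsin B, had 199 ± 25.5 FPKM (SD, n = 3) with IgG and 168 ± 19.2 FPKM (SD, n = 3) with anti-ENG, a log2 fold change estimated at -0.24 (SE 0.15, limma adjusted p = 0.579), or -0.15 without IgG control 1 and -0.078 with anti-ENG 1 also left out, and CTSL1 had one of -0.099 that turned to 0.13 without IgG control 1. The other genes of that role, ST14, HPN, KLKB1 and F12, had means below 1 FPKM.

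Among receptors that take up or bind the activators and their inhibitor complexes, LRP1, which internalizes activator-serpin complexes, stood at 7.83, 5.95 and 4.13 FPKM in the IgG tumours 1 to 3, compared with 1.43, 4.11 and 3.95 FPKM in the anti-ENG tumours 1 to 3. The arms did not overlap, although IgG control 3 and anti-ENG 2 were nearly level, and the log2 fold change was -0.79 (SE 0.33, limma adjusted p = 0.529). This was -0.44 without anti-ENG 1 and -0.25 with IgG control 1 left out as well. MRC2, a collagen receptor that associates with PLAUR, had 49.1, 26.8 and 16.9 FPKM in the IgG tumours and 8.30, 22.6 and 17.5 FPKM in the anti-ENG tumours, with overlapping arms and a log2 fold change estimated at -0.87 (SE 0.44, limma adjusted p = 0.542). Without anti-ENG 1 this was -0.48. With IgG control 1 left out as well it was -0.096. MRC2 and SERPINE2 thus shared their highest and their lowest tumour. LRPAP1, the chaperone of LRP1, had 10.5 and 10.4 FPKM as means of the arms. SORL1, a sorting receptor below the filter with a mean of 0.201 FPKM, was listed at 0.0786 to 0.701 FPKM with IgG and at 0.00738 to 0.0661 FPKM with anti-ENG, without overlap. It was highest in IgG control 1 and lowest in anti-ENG 1, and is not among the tested genes. With no filter on low values the arms did not overlap in 2668 of 18915 genes.

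Other inhibitors varied more than they differed between arms. TFPI2, a Kunitz inhibitor of plasmin in the matrix, had 52.0, 9.10 and 29.1 FPKM in the IgG tumours and 8.66, 4.94 and 36.8 FPKM in the anti-ENG tumours, a log2 fold change estimated at -0.97 (SE 0.79, limma adjusted p = 0.660) that ran from -1.74 without anti-ENG 3 to -0.40 without anti-ENG 2, and was -0.22 with IgG control 1 and anti-ENG 1 both left out. SERPINA5, the protein C inhibitor, which also blocks urokinase, had 26.5, 21.1 and 19.4 FPKM with IgG and 5.26, 27.6 and 17.9 FPKM with anti-ENG. Its log2 fold change, -0.63 with all 6 tumours (SE 0.50, limma adjusted p = 0.654), was 0.0050 without anti-ENG 1, the low tumour.

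Downstream of the activators, PDGFC, a growth factor that tissue-type activator releases from its inactive form, had 15.6, 20.0 and 20.5 FPKM in the IgG tumours and 24.8, 23.3 and 25.4 FPKM in the anti-ENG tumours. The arms of PDGFC did not overlap, and its log2 fold change was 0.38 (SE 0.13, limma adjusted p = 0.529), with 0.26 to 0.36 across the 4 other scalings. PDGFD, which urokinase can process, had a mean of 0.0767 FPKM. The collagenase gene MMP13 had 502, 79.8 and 228 FPKM with IgG and 89.7, 88.8 and 295 FPKM with anti-ENG, and MMP1, another collagenase whose zymogen plasmin can cut, had 340, 90.2 and 82.8 FPKM with IgG and 56.3, 37.6 and 217 FPKM with anti-ENG. Both were highest in IgG control 1, and their log2 fold changes were -0.65 (SE 0.71, limma adjusted p = 0.741) and -0.81 (SE 0.74, limma adjusted p = 0.692). Without IgG control 1 these were -0.021 and -0.16, and with anti-ENG 1 also left out both turned, to 0.26 and 0.071.

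**Figure D5:**
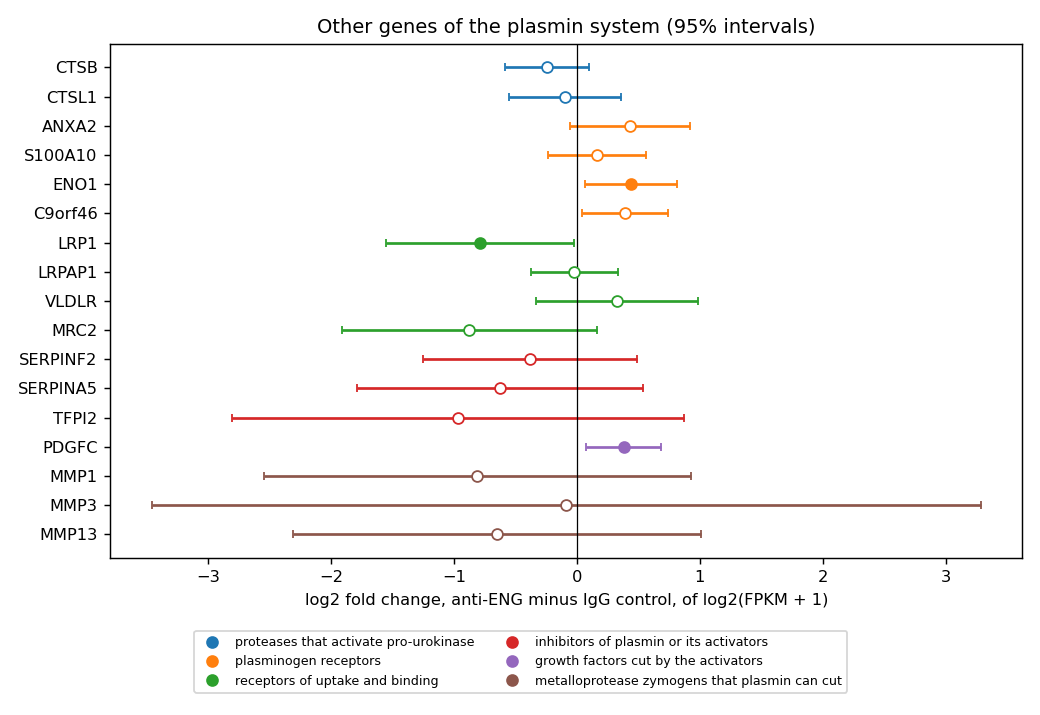
Log2 fold change of log2(FPKM + 1), anti-ENG minus IgG control, with 95% intervals (horizontal axis) for the 17 tested genes of the list, coloured by role; filled points are genes whose arms do not overlap. The filled points are ENO1 at 0.44, LRP1 at -0.79 and PDGFC at 0.38, and the widest intervals belong to MMP3, TFPI2, MMP1 and MMP13.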

How the data were processed

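The authors deposited FPKM values of 6 tumours in 1 table. The submitters' processing notes name Cuffnorm, Cufflinks 2.2.1, TopHat2 2.0.10, SAMtools 0.1.1.9, Bowtie 1.0.0 and FastQC 0.10.1, and the human build hg19 (GRCh37). Sequencing was of polyadenylated RNA, per the labels' protocols, which do not assign kits and instruments to samples, so a difference of kit between the arms cannot be told apart from treatment. Treatment of mouse reads, use of strand and the scaling of Cuffnorm are not given in the sources used here. No count test fits FPKM values, and total depth is unknown. Relative depth came from the most frequent ratio of values of at most 0.05 FPKM between tumours.

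The arms were compared on log2(FPKM + 1) by limma (version 3.58.1, under R 4.3.3), with a trended variance and without covariates, over the 12586 genes that averaged 1 FPKM or more, two-sided and adjusted by Benjamini-Hochberg over all of them. Fold changes on this scale understate changes of low genes. The fitting code was checked on simulated data. Members, lists and alternatives were chosen with earlier results of these data known. The text names all members, and of the list the 2 genes of highest mean in each role and those whose arms do not overlap. For each member it names the 3 genes of highest r, passing over unnamed loci, pseudogenes and RNA genes. Some genes of the system are not reported here.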

Additional observations from a re-analysis of the deposited data

How the results depend on the processing

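Of 20 alternatives each for PLAU, PLAT, PLAUR and SERPINE2 and 19 for SERPINB2, none brought a gene past the adjusted threshold, and 0 genes of the whole table passed under any of them, with 662 to 1566 genes at an unadjusted p under 0.05. A filter of 5 FPKM left SERPINB2 untested. The direction turned for PLAU with sample weights (0.0082), without IgG control 1 (0.32) and with both IgG control 1 and anti-ENG 1 left out (0.16), for PLAUR in the same settings (0.0099, 0.081 and 0.35), and for SERPINE2 without anti-ENG 1 (0.00016) and without both (0.42). Leaving out 1 tumour at a time gave log2 fold changes from -0.49 to 0.32 for PLAU, -0.69 to -0.24 for PLAT, -0.62 to 0.081 for PLAUR, -0.81 to 0.00016 for SERPINE2 and -0.93 to -0.40 for SERPINB2. The median of the other plasmin system genes ran from -0.26 to 0.055 in those fits, and was highest, 0.16, with both of these tumours left out. Genes whose arms did not overlap numbered 2922 to 4182 with 1 tumour left out, 4780 without both tumours and 5189 with tumours of one code number averaged, since fewer samples overlap less often. Where that leaves an arm with few tumours, limma pools the spread across arms. Rescaling each tumour to the same sum of FPKM moved the median of all genes by -0.11, and relative to it PLAU stood at -0.23, PLAT at -0.47, PLAUR at -0.39, SERPINE2 at -0.52 and SERPINB2 at -0.56. With the title number as a replicate block no call changed, and the adjusted p was 0.641 for PLAT and SERPINB2, 0.783 for PLAU, 0.792 for PLAUR and 0.775 for SERPINE2. The unadjusted limma p of PLAT was under 0.05 without IgG control 3 (0.00558), with the same sum (0.0218) and with upper quartile rescaling (0.0439). That of SERPINB2 was so without IgG control 2 (0.00302), with code numbers averaged (0.0382) and with the replicate block (0.0465). These estimates were below 0, and that of SERPINE2 without both tumours (0.0213) was above 0. The tumours left out for PLAT and SERPINB2 were the only IgG tumours within the anti-ENG range of those genes. Those left out for SERPINE2 held its highest and lowest values. Low p-values from leaving such tumours out are therefore no separate results. Deviations of same-numbered tumours correlated at -0.33, 0.19 and 0.037, and those of the other pairs across the arms at -0.49 to 0.35. With 3 tumours in each arm these values cannot decide whether the numbers pair the tumours.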
